A study of Mus musculus with 9 samples.

Results

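The genes described here belong to bone morphogenetic protein (BMP) signalling: the inhibitors of DNA binding *Id1*, *Id2*, *Id3* and *Id4*, the ligands *Bmp4*, *Bmp2* and *Bmp7*, the type I receptor *Bmpr1a* and the inhibitory Smads *Smad6* and *Smad7*. They were chosen by name, and all 10 were found among the 54232 gene IDs of the count data. Poly(A) RNA was sequenced from naïve mouse embryonic stem cells (mESCs) and from the primed cells (mEpiSCs) that were converted from them, at passage 5 (P5) and passage 15 (P15), with 2 libraries of each state at each passage. A single library was made from mouse embryonic fibroblasts (MEFs), labelled as somatic cells, and all 9 libraries are labelled strain C57 x CBA. Naïve cells were kept in medium with serum and LIF, and primed cells in medium with Fgf2 and activin A, both on mitomycin C-treated MEF feeders, so state and medium cannot be told apart. All naïve and primed cells come from 1 mESC line that carries a GFP reporter under distal *Oct4* regulatory sequence. The libraries of a group are described in the study as biological repeats, without a statement on separate cultures, and p-values measure the spread between these libraries.

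BMP ligands bind type I and type II receptors, and the type I receptor phosphorylates Smad1, Smad5 and Smad9, which join Smad4 and enter the nucleus. *Id* genes are the best known direct targets of these Smads. Id proteins have a helix-loop-helix region but no DNA-binding region, so they pair with E proteins and other basic helix-loop-helix factors and keep them off DNA. In mESC culture with LIF, BMP from serum is known to sustain self-renewal through *Id* genes, whereas in the embryo *Bmp4*, *Bmp2* and *Bmp7* serve in patterning after implantation. *Smad6* and *Smad7* are themselves induced by the pathway and dampen it.

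Promoter windows were used for 6 of the 10 genes, namely *Id2*, *Id3*, *Id4*, *Bmp4*, *Bmpr1a* and *Smad6* (RefSeq, GRCm38.p6, 250 bases before to 50 bases after the start site). No window was available for *Id1*, *Bmp2* and *Bmp7*, and *Smad7* was not looked up. *Id2* and *Id4* are shown because they had the largest fold differences between the states among the *Id* genes at P15. The printed stretches lie upstream of the RefSeq start site and outside the exons of GENCODE M21. The *Id2* stretch, 89 bases long, nevertheless lies inside the GENCODE gene, which spans 25093799 to 25097140. The *Id4* stretch lies before the GENCODE gene, which begins at 48261228. *Id2* is at chr12:25096254-25096342 (minus strand) and *Id4* at chr13:48260866-48261115 (plus strand), both written 5′ to 3′, and capitals mark GGCGCC, a GC-rich letter run known from BMP-responsive elements of *Id* promoters.

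Id2: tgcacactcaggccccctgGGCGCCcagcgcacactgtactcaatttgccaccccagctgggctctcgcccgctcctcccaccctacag

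Id4: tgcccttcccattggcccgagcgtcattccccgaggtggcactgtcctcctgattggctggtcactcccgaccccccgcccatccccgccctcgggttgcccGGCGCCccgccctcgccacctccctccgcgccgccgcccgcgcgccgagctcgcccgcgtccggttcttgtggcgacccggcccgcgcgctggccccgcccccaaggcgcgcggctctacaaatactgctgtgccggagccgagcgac

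The match began 231 bases before the start site in *Id2* and 148 bases before it in *Id4*, and *Bmpr1a* held one 198 bases before its start. GGCGCC reads alike on both strands and occurred in 11.9% of 32851 promoter windows of this length. The windows of *Id2*, *Id4* and *Bmpr1a* were 63.3%, 73.3% and 79.3% GC, and those of *Id3*, *Bmp4* and *Smad6* 60%, 64% and 66.3%. The part of GC content in these matches was not tested. GTCTG, the Smad-binding letter run, or CAGAC on the other strand occurred in 49.6% of the windows. Among the 6 genes only *Id3* held it, beginning 167 and 68 bases before the start site. These 2 motifs do not overlap each other, and the letters alone do not show that a factor binds there. Positions are counted from the RefSeq start site, and the matches in *Id2*, *Id3* and *Bmpr1a* lie inside the GENCODE gene.

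Total counts per library were 14378051 to 20985136 for the pluripotent cells and 25646547 for MEFs. Levels are given in CPM, read counts relative to the library size after edgeR's TMM scaling over all 9 libraries, and the states were compared by edgeR's quasi-likelihood F-test, with p-values adjusted over all genes tested by the Benjamini-Hochberg procedure. A gene is said to rise or fall at an adjusted p under 0.01, and to pass both thresholds where the fold is also at least 2. Replicates varied by a biological coefficient of 3.26% in the P5 fit and 4.79% in the P15 fit. The summed level of 7 naïve markers was 1575 to 1788 CPM in naïve and 56.2 to 193.5 CPM in primed libraries, and that of 5 primed markers was 340.0 to 352.3 CPM and 807.6 to 849.2 CPM, so both sets followed the labels. In such bulk samples, fewer cells of a type and less RNA per cell cannot be told apart. All 14 fibroblast markers were above the level of 3 counts in every naïve and primed library. Their sum was 5278 to 5331 CPM in naïve and 3256 to 3320 CPM in primed cells at P5, 10234 to 10761 CPM and 9428 to 9780 CPM at P15, and 60345 CPM in MEFs. Their median ratio to the MEF library was 10.3% to 10.7% and 12.2% to 12.3% at P5, and 15.8% to 16.4% and 25.5% to 25.7% at P15, in naïve and primed cells respectively. Single markers ranged from 2.61% (*Fap*) to 354.0% (*Dcn*) of their MEF level.

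**Figure D1:**
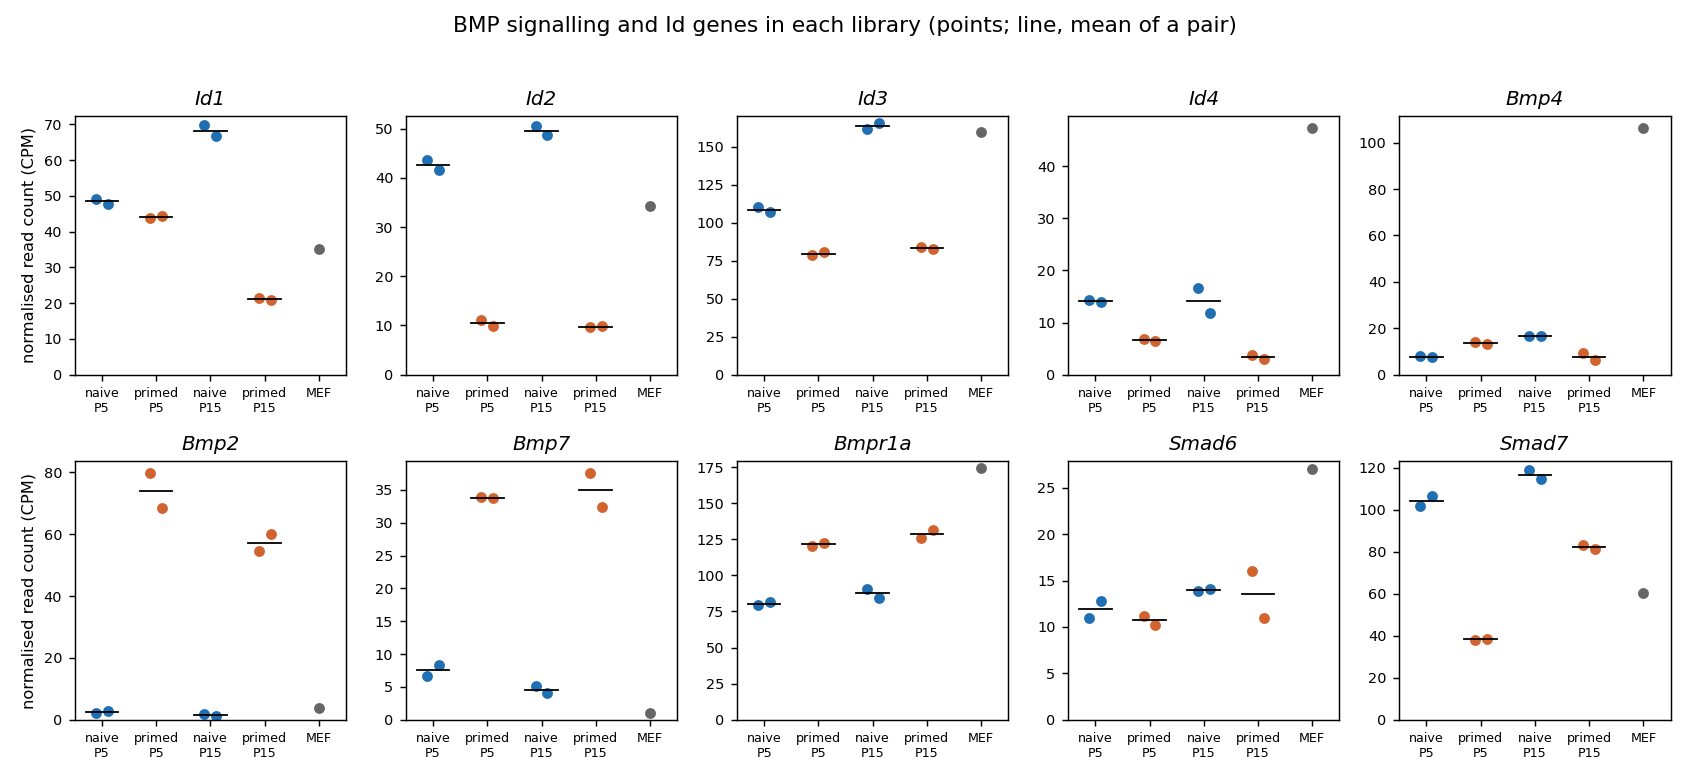
Normalised read count in CPM (vertical axis, from 0, a scale for each gene) of the 10 genes in the 9 libraries, with naïve cells in blue, primed cells in orange and MEFs in grey. Points are libraries and lines the means of 2 libraries. *Id2* was below 12 CPM in all primed and above 41 CPM in all naïve libraries, while *Bmp2* was above 54 CPM in all primed and below 3 CPM in all naïve libraries.

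At P5, primed cells had less *Id2*, *Id4* and *Smad7* and more *Bmp2* and *Bmp7* than naïve cells, each past both thresholds. These were 2 genes higher and 3 lower of 10, where 13.5% of the 16482 genes tested were higher and 8.85% lower, and 8 of 10 had an adjusted p under 0.01, where 62.3% of all genes did. The median log2 fold change of the 10 genes was −0.11, against 0.0078 over all genes tested. At P15, *Id1*, *Id2*, *Id4* and *Bmp4* were lower and *Bmp2* and *Bmp7* higher in primed cells, or 4 lower and 2 higher of 10, where 12.2% of the 15733 genes tested were higher and 11% lower. An adjusted p under 0.01 was reached by 9 of 10, where 56.6% of all genes reached it, and the median was −0.75, against −0.0039 over all genes.

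**Figure D2:**
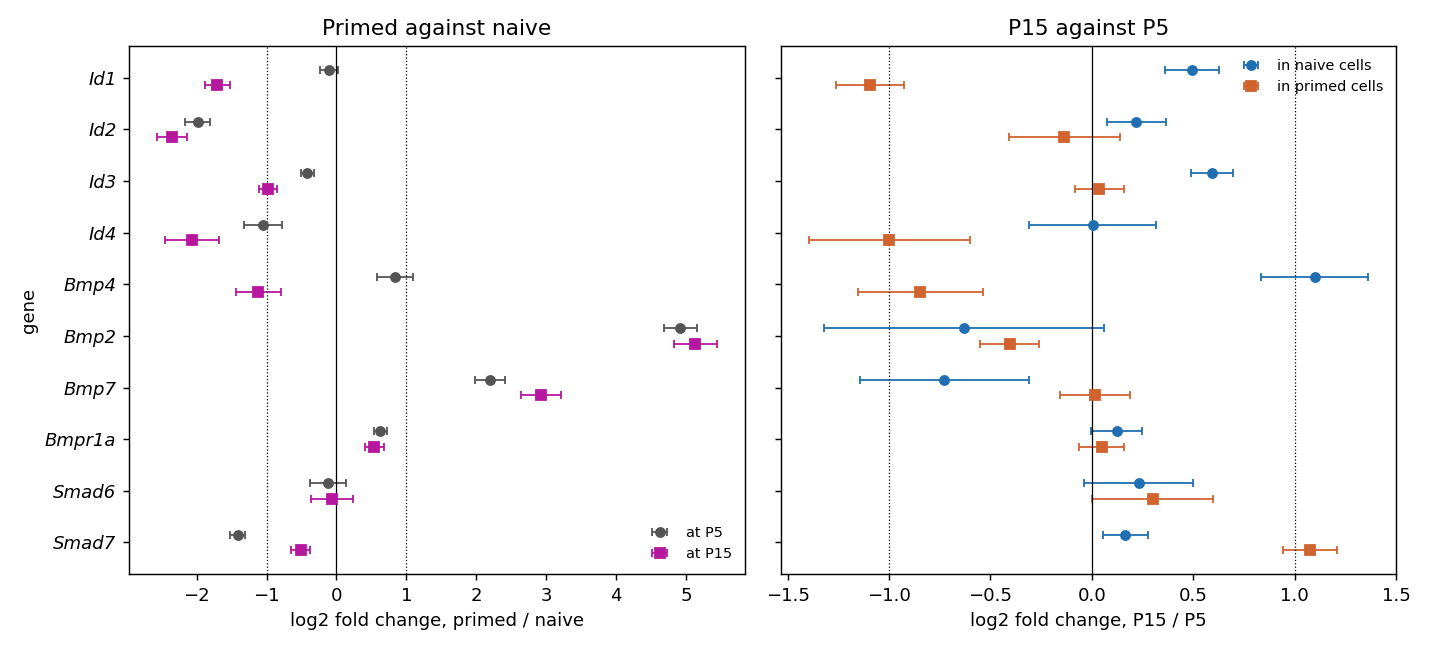
Log2 fold change (horizontal axis) with its 95% interval for each of the 10 genes, as primed against naïve at P5 (circles) and P15 (squares) on the left and as P15 against P5 in naïve (circles) and primed cells (squares) on the right. Dotted lines mark a fold of 2. *Bmp4* lies at 0.84 at P5 and at −1.12 at P15, and *Id1* at −0.11 and −1.71.

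*Id1* (ENSMUSG00000042745, GRCm38 chromosome 2, 152736251 to 152737410) differed between the states at P15 but not detectably at P5. It was at 49.1 and 47.7 CPM in naïve and 43.8 and 44.3 CPM in primed cells at P5, and at 69.8 and 66.6 CPM in naïve and 21.4 and 20.7 CPM in primed cells at P15. The primed libraries at P15 were the lowest of all 8 and the naïve libraries at P15 the highest. The log2 fold change was −0.11 at P5 (interval −0.23 to 0.02, adjusted p = 0.125, and 0.10 with library size alone) and −1.71 at P15 (standard error 0.086, adjusted p = 2.34e-19). The effects at the 2 passages differed by −1.58 on the log2 scale (standard error 0.10, adjusted p = 7.08e-14 in a fit of all 8 libraries). *Id1* changed in opposite directions with passage, rising by 0.50 in naïve cells and falling by 1.09 in primed cells on the log2 scale.

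*Id2* (ENSMUSG00000020644, chromosome 12, 25093799 to 25097140) was low in primed cells at either passage. Its level was 43.6 and 41.6 CPM in naïve and 11.1 and 9.82 CPM in primed cells at P5. At P15 it was 50.5 and 48.7 CPM in naïve and 9.70 and 9.83 CPM in primed cells. No naïve library came near a primed one, and the MEF library, at 34.3 CPM, lay between. *Id2* fell 3.97-fold at P5 (log2 −1.99, standard error 0.090, adjusted p = 5.51e-18) and 5.11-fold at P15 (log2 −2.35, standard error 0.11, adjusted p = 5.87e-21). A difference of −0.35 between these effects did not pass (interval −0.64 to −0.06, adjusted p = 0.0530). It passed with the median feeder share taken off (−2.71, adjusted p = 1.50e-06) and not with the lowest one (−0.50, adjusted p = 0.0148). The median share would give 8.76 of the 9.76 CPM in primed cells at P15 and left 16 and 19 counts there. The P15 effect was then −5.28, against −2.63 with the lowest share. For *Id4* and *Bmp4* the median share would give 12.1 and 27.2 CPM in primed cells at P15, above the measured 3.40 and 7.72 CPM. The part of feeder RNA in the *Id2* levels was not tested beyond this.

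*Id3* (ENSMUSG00000007872, chromosome 4, 136143497 to 136145755) had the highest level of the 4 *Id* genes. It was at 110.5 and 106.9 CPM in naïve and 78.5 and 80.7 CPM in primed cells at P5, and at 161.8 and 165.9 CPM and 84.0 and 82.9 CPM at P15. The primed groups lay close together, while the naïve libraries at P15 stood above those at P5. The fold was 1.34 at P5 (log2 −0.42, standard error 0.047, adjusted p = 4.03e-09) and 1.98 at P15 (log2 −0.98, standard error 0.064, adjusted p = 3.89e-16), so *Id3* fell at each passage but stayed under a fold of 2. At P15 it passed that fold with the feeder share taken off (log2 −1.53 by the median and −1.07 by the lowest fibroblast marker) and without naïve P15 replicate 1 (−1.02). The effect at P15 was more negative by 0.55 on the log2 scale, since the fitted difference was −0.55 (standard error 0.076, adjusted p = 7.69e-07).

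*Id4* (ENSMUSG00000021379, chromosome 13, 48261228 to 48266026) was the *Id* gene with the fewest reads in naïve and primed cells. It was at 14.3 and 14 CPM in naïve and 6.86 and 6.43 CPM in primed cells at P5. At P15 it was at 16.6 and 11.9 CPM in naïve and 3.79 and 3.01 CPM in primed cells, and the 2 naïve libraries were further apart than those of any other *Id* gene. The states did not overlap at either passage. At P5 it differed by −1.05 on the log2 scale (adjusted p = 2.67e-08, standard error 0.13) and −2.07 at P15 (standard error 0.19, adjusted p = 8.22e-12), and the effects differed by −1.0 (standard error 0.24, adjusted p = 0.00139). At P5 the fold is close to 2: without primed P5 replicate 2 it was −0.98 on the log2 scale, and with library size alone −0.85. The difference between passages no longer passed without primed P5 replicate 1 (−0.98, adjusted p = 0.0109), without naïve P15 replicate 1 (−0.75, adjusted p = 0.0168) or without primed P15 replicate 2 (−0.83, adjusted p = 0.0217). MEFs had 47.4 CPM of *Id4*, the highest of any library. The level in primed cells at P15 was 7.17% of that, below the median fibroblast marker there, and the fibroblast marker with the lowest ratio would alone give 2.74 of the 3.40 CPM. With that lowest share taken off, *Id4* had −1.11 at P5 and −3.76 at P15 on the log2 scale. The difference between passages by edgeR's test was −2.63 (adjusted p = 0.00183), with 29 and 0 of 66 and 53 counts left in primed cells at P15. In these libraries the lowest share came from *Fap* alone, with 28 and 45 counts and 4.46% and 7.09% of its MEF level. The P15 values with this share taken off thus rest on few counts of 1 marker in primed cells. The median share took off all counts there, and gave −3.31 at P5. The part of feeder RNA in these levels was not tested beyond this.

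Set against each other per kilobase of exon, the *Id* transcripts summed to 123.6 ± 2.88 CPM per kb in naïve and 88.4 ± 0.698 in primed cells at P5, and to 174.4 ± 1.73 in naïve and 69.6 ± 0.958 in primed cells at P15 (SD, n = 2 each). Of the sum, *Id3* made up 49.1% and 50.3% at P5, and 52.5% and 66.9% at P15, in naïve and primed cells respectively. *Id1* made up 33.8% of it in naïve and 42.9% in primed cells of P5, and 33.7% and 26.1% at P15. The share of *Id2* was 14.1% and 11.7% in naïve cells at P5 and P15, and 4.86% and 5.75% in primed cells. *Id4* held 1.27% to 2.97% in the 4 groups and 8.44% in MEFs. *Id3* thus supplied more of the *Id* transcripts in primed cells at P15 than in any other group, in a smaller total. In MEFs *Id3* held 61.1%, and the median feeder share, highest in primed cells at P15, would give 40.8 of their 83.4 CPM of *Id3*. The median feeder share would also give more *Id4* and *Bmp4* than was measured in primed cells at P15. The part of feeder RNA in the *Id3* percentage was not tested.

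**Figure D3:**
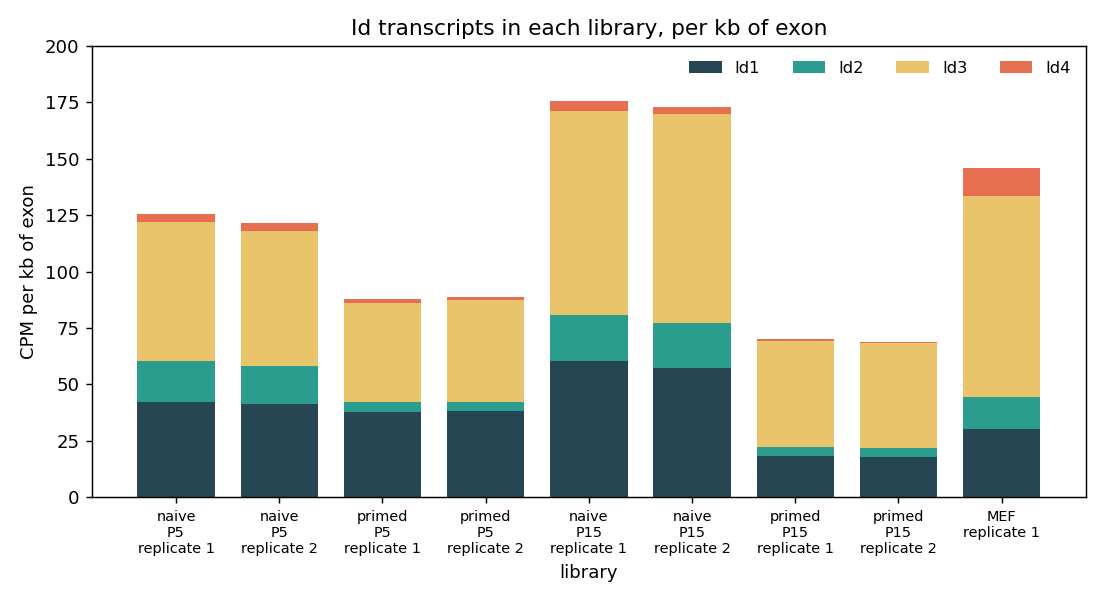
Levels of *Id1* to *Id4* in CPM per kb of exon (vertical axis, from 0), stacked for each of the 9 libraries (horizontal axis). The primed stacks are shorter than the naïve ones at either passage, and *Id3* is the largest segment in every library.

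Of the ligands, *Bmp2* (ENSMUSG00000027358, chromosome 2, 133552159 to 133562885) showed the largest difference among the 10 genes. In naïve cells it was at 2.14 and 2.87 CPM at P5 and 1.92 and 1.34 CPM at P15. Primed cells had 79.7 and 68.6 CPM at P5 and 54.6 and 60.0 CPM at P15, and MEFs 3.87 CPM, so that only primed libraries were above 4 CPM. *Bmp2* rose 30.2-fold at P5 (log2 4.92, standard error 0.11, adjusted p = 3.99e-25) and 35.1-fold at P15 (log2 5.14, standard error 0.15, adjusted p = 1.38e-26). The effects at the 2 passages were not shown to differ (difference 0.24, interval −0.34 to 0.82, adjusted p = 0.565).

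*Bmp7* (ENSMUSG00000008999, chromosome 2, 172868012 to 172940321) moved the same way. It was at 6.71 and 8.41 CPM in naïve and 33.9 and 33.8 CPM in primed cells at P5, and at 5.08 and 4.09 CPM and 37.5 and 32.4 CPM at P15. MEFs, at 0.978 CPM, had less than any of the other libraries. *Bmp7* rose 4.57-fold at P5 (log2 2.19, standard error 0.11, adjusted p = 2.20e-17) and 7.60-fold at P15 (log2 2.93, standard error 0.14, adjusted p = 6.27e-20). The effect was larger at P15 by 0.75 on the log2 scale (standard error 0.19, adjusted p = 0.00276), but this call was lost with library size alone (0.64, adjusted p = 0.0111) and when any of 5 libraries was left out. These were both primed P5 libraries, naïve P5 replicate 2, naïve P15 replicate 2 and primed P15 replicate 1, with values down to 0.59 (without naïve P5 replicate 2, adjusted p = 0.0383).

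*Bmp4* (ENSMUSG00000021835, chromosome 14, 46383520 to 46390669) was the only one of the 10 genes that rose in primed cells at one passage and fell at the other. It was at 7.86 and 7.67 CPM in naïve and 14 and 13.1 CPM in primed cells at P5. At P15 it was at 16.6 and 16.7 CPM in naïve and 9.30 and 6.14 CPM in primed cells. The groups did not overlap at either passage, and their order was reversed. The log2 fold change was 0.84 at P5 (fold 1.79, standard error 0.13, adjusted p = 9.82e-07) and −1.12 at P15 (fold 2.17, standard error 0.16, adjusted p = 1.02e-07). These effects differed by −1.94 (standard error 0.21, adjusted p = 6.00e-09). Primed P15 replicate 2 was the lowest library, and without it the P15 value was −0.82 and under a fold of 2.

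*Bmp4* lay far below its level in MEFs, which had 106.4 CPM. The naïve and primed groups held 7.25% to 15.6% of that level, within or below the range of the median fibroblast marker. By the fibroblast marker with the lowest ratio in each library, feeder RNA would give 6.19 CPM in naïve and 2.97 CPM in primed cells of P5, and 6.87 and 6.14 CPM at P15. The mean *Bmp4* levels were 7.76, 13.6, 16.6 and 7.72 CPM. That marker differed between the groups. It was *Col3a1* in naïve P5, *Col1a1* and *Fap* in primed P5 replicates 1 and 2, *Lum* in naïve P15 and *Fap* in primed P15 libraries. Taking off this lowest feeder amount left the directions as they were, at 2.71 at P5 and −2.14 at P15 on the log2 scale. It left 0 counts of *Bmp4* in primed P15 replicate 2, where *Fap* had 45 counts. With the median marker, the amount taken off was 11.2 and 13 CPM at P5 and 17.1 and 27.2 CPM at P15, and *Bmp4* could not be fitted. The part of feeder RNA in the *Bmp4* levels was not tested beyond this.

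**Figure D4:**
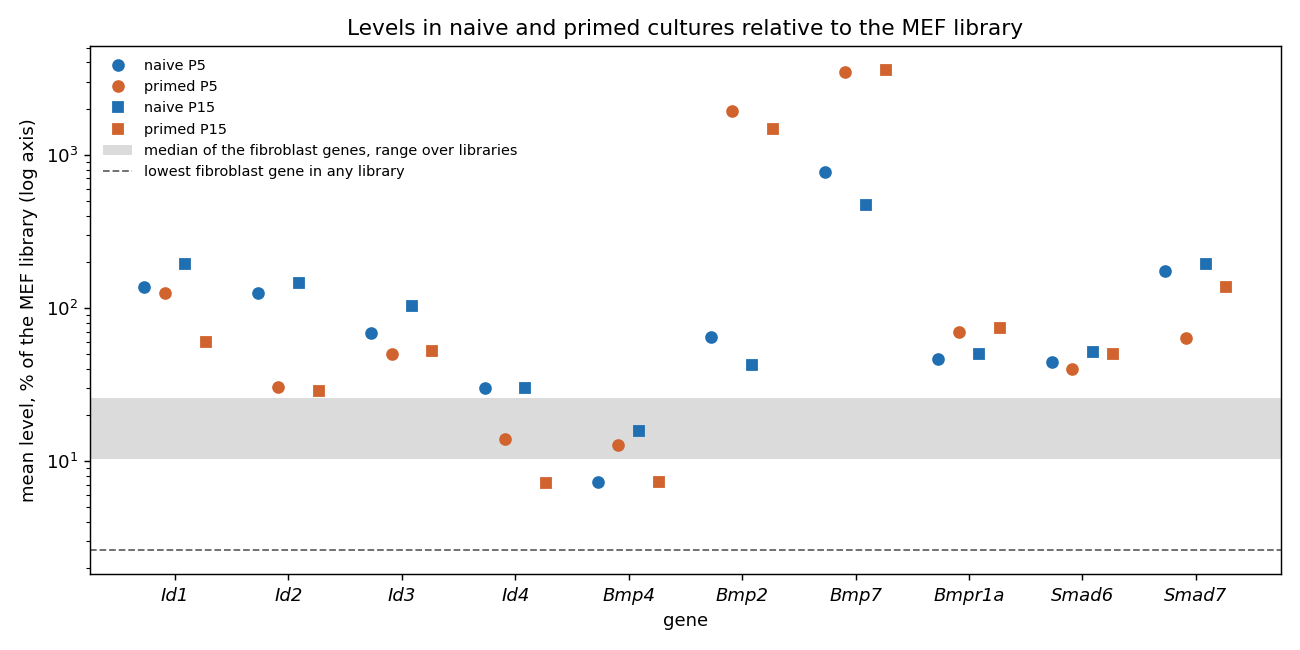
Mean level of each of the 10 genes in naïve (blue) and primed cells (orange) at P5 (circles) and P15 (squares), as a percentage of the MEF library (vertical log axis), with 2 libraries a group. The grey band spans the median ratio of 14 fibroblast markers over the 8 libraries (10.3% to 25.7%) and the dashed line is their lowest single ratio (2.61%). *Bmp4* lies within or below the band in all 4 groups, and *Bmp7* far above it.

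*Bmpr1a* (ENSMUSG00000021796, chromosome 14, 34410734 to 34503341), the type I receptor, was higher in primed cells by less than a fold of 2. Its level was 79.5 and 81.5 CPM in naïve and 120.5 and 122.6 CPM in primed cells at P5, and 90.9 and 84.4 CPM and 125.7 and 131.3 CPM at P15. The states were apart and the passages of a state close. *Bmpr1a* rose 1.54-fold at P5 (log2 0.63, standard error 0.045, adjusted p = 3.44e-13) and 1.46-fold at P15 (log2 0.54, standard error 0.066, adjusted p = 5.89e-09), and the difference between these effects was −0.07 (interval −0.23 to 0.09, adjusted p = 0.557). MEFs had 174.2 CPM.

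The inhibitory Smads differed from each other. *Smad7* (ENSMUSG00000025880, chromosome 18, 75367529 to 75395935), which also restrains activin and TGF-beta signalling, was at 101.9 and 106.5 CPM in naïve and 38.1 and 38.4 CPM in primed cells at P5, and at 119.1 and 114.5 CPM and 83.5 and 81.3 CPM at P15. Primed cells at P5 were the low group. It fell 2.67-fold at P5 (log2 −1.41, standard error 0.054, adjusted p = 8.12e-20) and 1.43-fold at P15 (log2 −0.51, standard error 0.066, adjusted p = 1.64e-08), and the effects differed by 0.92 (standard error 0.083, adjusted p = 1.87e-10). *Smad6* (ENSMUSG00000036867, chromosome 9, 63953076 to 64022059), which acts mainly on the BMP branch, was at 10.2 to 12.8 CPM at P5 and 11 to 16.1 CPM at P15 with overlapping groups. Its log2 fold change was −0.12 at P5 (interval −0.37 to 0.14, adjusted p = 0.412) and −0.06 at P15 (interval −0.36 to 0.24, adjusted p = 0.745).

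Within the naïve state, P15 differed little from P5 across all genes, but 3 of the 10 genes rose. Of the 10 genes 1 was higher, *Bmp4*, and 0 lower, where 0.414% of the 15683 genes tested were higher and 0.721% lower, and 3 passed the adjusted p, where 9.22% of all genes did. *Bmp4* rose 2.14-fold (log2 1.10, adjusted p = 4.69e-05), *Id3* 1.51-fold (log2 0.59, adjusted p = 2.50e-06) and *Id1* 1.41-fold (log2 0.50, adjusted p = 0.000116). By DESeq2's Wald test 0 were lower too, and at an unadjusted p under 0.05 by edgeR 1 was, *Bmp7* (log2 −0.73, unadjusted p = 0.00248). Of all 15683 genes tested, 4892 had such an unadjusted p, in either direction. *Id2*, *Bmp7* and *Smad7* had unadjusted p-values under 0.05 but adjusted ones of 0.0202 to 0.0417 by edgeR. The summed fibroblast markers were also higher at P15, as given above, and their part in the *Bmp4* value was not tested beyond the subtraction, which gave 2.63 on the log2 scale with the lowest marker.

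Within the primed state, 1 of 10 was higher and 1 lower at P15 than at P5, where 3.18% of the 15957 genes tested were higher and 8.43% lower. The higher one was *Smad7*, by 2.11-fold (log2 1.08, adjusted p = 1.05e-13), and the lower one *Id1*, by 2.14-fold (log2 −1.09, adjusted p = 8.24e-12). *Id4* fell just short of a fold of 2 (2.0, log2 −1.0, adjusted p = 7.67e-05), while *Bmp4* (log2 −0.85, adjusted p = 2.63e-05) and *Bmp2* (log2 −0.41, adjusted p = 2.20e-05) fell by less. Without primed P15 replicate 1 *Bmp4* had −1.17 and passed the fold of 2. In all 5 of 10 passed the adjusted p, where 47.1% of all genes did. *Id4* crossed the fold of 2 in 8 of 12 alternatives (−2.66 with the lowest feeder share taken off), and *Smad7* came under it with library size alone (0.94). For *Id2*, *Id3*, *Bmp7* and *Bmpr1a* in primed cells the 95% intervals of the log2 change with passage lay between −0.41 and 0.19. With the median feeder share taken off, *Id2* was past both thresholds there (−2.44, adjusted p = 5.85e-05) and *Id3* fell by 0.28 on the log2 scale (adjusted p = 0.00823). With the lowest share *Id2* had −0.28 (adjusted p = 0.127) and *Id3* 0.0046 (adjusted p = 0.954). The median share would give more *Id4* and *Bmp4* than was measured in primed cells at P15. For the difference of the state effect between passages, 6 of 10 passed the adjusted p (*Id1*, *Id3*, *Id4*, *Bmp4*, *Bmp7* and *Smad7*), where 24.1% of the 16926 genes tested did.

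The order of the levels per kilobase of exon was led by *Id3* in all 4 groups. In naïve cells *Id3* (60.7 CPM per kb at P5 and 91.5 at P15) was followed by *Id1*, *Smad7*, *Id2* and *Bmpr1a* at either passage, without overlap between neighbours. *Bmp2* was last there, at 0.704 and 0.458 CPM per kb. In primed cells *Bmp2* came next after *Id3* and *Id1* at P5 (20.8 CPM per kb), where its libraries overlapped those of *Bmpr1a* (19.1), and it was at 16.1 at P15. At P15 *Smad7* (18.2) and *Id1* (18.2) overlapped in primed cells, and so did *Smad6*, *Id2* and *Bmp4* as neighbours (4.22, 4.0 and 3.43). *Id4* was the lowest of the 10 in primed cells, at 1.73 and 0.883 CPM per kb.

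Across the 8 naïve and primed libraries, on log2 of CPM plus 1, *Bmp2* ran against *Id2* (Pearson r = −0.99) and with *Bmp7* (r = 0.99), and *Id1* ran with *Id4* (r = 0.91) and less closely with *Id2* (r = 0.78) and *Id3* (r = 0.75). These libraries fall into the 2 states, so the values describe mostly the difference of state. The genes whose pattern was most like that of *Id1*, among the 10000 genes of at least 10 CPM on average, were *Des* (r = 0.993), *Pdlim5* (r = 0.993) and *Rock2* (r = 0.991). *Des*, the muscle intermediate filament gene, was at 39.2 CPM in naïve and 29.8 CPM in primed cells of P5, and at 57.3 and 11 CPM at P15. For *Bmp4* they were *Orc4* (r = 0.958), *Itga5* (r = 0.927) and *Stambpl1* (r = 0.913), with small changes: *Orc4*, of the origin recognition complex, was at 35.7 and 39.5 CPM at P5 and 41.6 and 35.3 CPM at P15.

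Apart from the 10 genes, 59 other genes of the pathway were listed by role. At P5 10 were higher and 4 lower in primed cells of 53 tested, and at P15 11 were higher and 4 lower of 52, against the shares of all genes given above. Their median log2 fold changes were 0.33 and 0.23. The secreted antagonists, which bind BMPs or related ligands outside the cell, held 6 of 13 higher and 0 lower at each passage (medians 0.76 and 0.91). By DESeq2's Wald test they held 4 higher at P5 and 6 at P15 and 0 lower, and at an unadjusted p under 0.05 by edgeR 2 were lower at P5 and 0 at P15. Of all genes, 12030 of 16482 tested at P5 and 10797 of 15733 at P15 had such an unadjusted p, in either direction. BMP ligands with *Bmp2*, *Bmp4* and *Bmp7* included held 4 higher and 0 lower of 9 tested at P5 and 4 higher and 2 lower at P15 (medians 0.84 and 0.69), and 5 of the 14 were too low to be tested. At P5 2 ligands were lower at an unadjusted p under 0.05 and 0 by DESeq2's call.

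**Figure D5:**
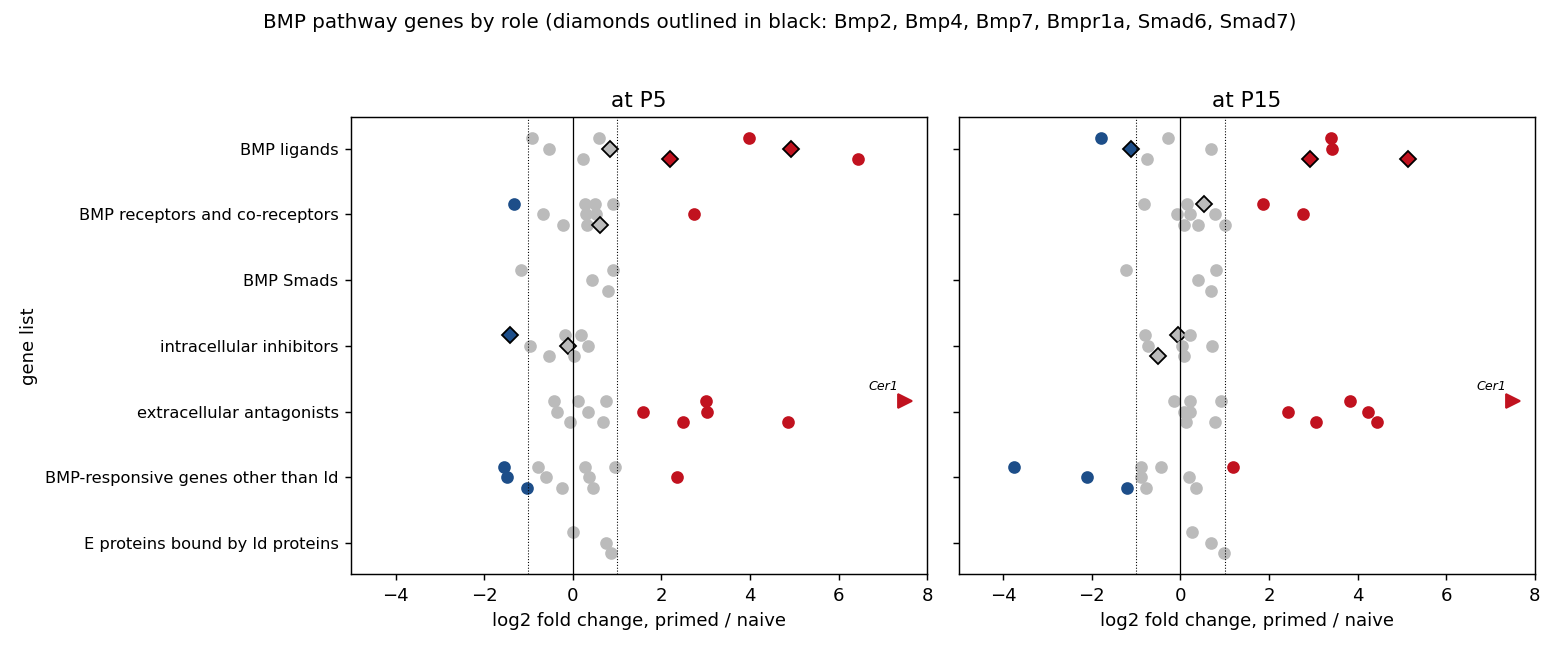
Log2 fold change of primed against naïve cells (horizontal axis) for the tested genes of 7 lists (rows) at P5 and P15, in red where higher and in blue where lower past both thresholds and in grey otherwise. Diamonds outlined in black are *Bmp2*, *Bmp4*, *Bmp7*, *Bmpr1a*, *Smad6* and *Smad7*, and the arrowhead is *Cer1*, whose fitted value is off the axis. The antagonists hold 6 red points and no blue one at each passage.

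*Cer1*, an antagonist of BMP and Nodal, had 0 counts in the naïve libraries at P5 and in MEFs, and 0 and 1 counts in naïve cells at P15. Primed cells had 208.7 and 209.7 CPM at P5 and 237.9 and 236.7 CPM at P15, at least 1402-fold higher at P5 against 3 counts in a naïve library. *Nog*, which sequesters BMP ligands, rose from 1.09 and 1.39 CPM to 38.0 and 33.0 CPM at P5 (log2 4.87, adjusted p = 6.22e-22) and from 1.18 and 1.34 CPM to 19.2 and 17.1 CPM at P15 (log2 3.82, adjusted p = 2.65e-18). *Sostdc1* was at 0.348 and 0 CPM in naïve and 1.84 and 0.943 CPM in primed cells at P5, and at 0.368 and 0.192 CPM and 5.91 and 6.36 CPM at P15. The sum of 5 primitive endoderm markers was also higher in primed than in naïve cells. It was 49.7 to 53.1 CPM in naïve and 199.9 to 207.9 CPM in primed cells at P5, and 40.9 to 42.1 CPM and 135.2 to 135.8 CPM at P15. In primed cells this sum was lower at P15 than at P5, as was *Nog*, whereas *Cer1* and *Sostdc1* were higher. All 5 markers were above the level of 3 counts in each of the 8 libraries, and MEFs summed to 215.5 CPM. The part of these markers in the antagonist levels was not tested.

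Among the other ligands, *Bmp3* had 1 and 0 counts in naïve and 45 and 55 counts in primed cells at P5, 3 and 2 counts and 38 and 29 counts at P15, and 337 counts in MEFs. *Bmp5* rose from 0.497 and 0.198 CPM to 5.62 and 5.21 CPM at P5 (log2 3.97, adjusted p = 1.31e-11) and was at 0.221 and 0.640 CPM in naïve and 4.99 and 4.83 CPM in primed cells at P15. *Bmp8a* was the ligand besides *Bmp4* that fell past both thresholds at P15 (log2 −1.79, adjusted p = 0.000662), with 1.69 and 2.24 CPM in naïve and 0.746 and 0.398 CPM in primed cells. This call was lost without primed P15 replicate 2 (−1.38, adjusted p = 0.0263), with DESeq2's Wald test (adjusted p = 0.0128) and with the median feeder share taken off (adjusted p = 0.0133). *Bmp3* and *Bmp5* were also present in MEFs, at 14.3 and 6.93 CPM.

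The receptors and co-receptors, with *Bmpr1a*, held 1 higher and 1 lower of 11 at P5 and 2 higher and 0 lower at P15 (medians 0.33 and 0.39). *Rgma*, a membrane-anchored BMP co-receptor, rose by 2.73 on the log2 scale at P5 and 2.78 at P15, from 8.45 and 8.81 CPM to 60.0 and 52.0 CPM at P5. *Rgmb*, its relative, rose by 0.91 at P5 and 1.86 at P15, and *Eng*, the co-receptor endoglin, fell by 1.33 and 0.83. Of the Smads that carry the signal, 0 of 4 passed both thresholds at either passage, by edgeR or by DESeq2's Wald test. *Smad1* (0.80 and 0.70), *Smad5* (0.90 and 0.80) and *Smad4* (0.44 and 0.41) rose at P5 and P15 on the log2 scale, and *Smad9* had −1.17 and −1.22 with adjusted p-values of 0.0126 and 0.0289. Some alternatives did pass, for *Smad5* at P5 library size alone (1.11) and either feeder share taken off (1.10 and 1.0), and at P15 the median share (1.07). *Smad1* at P5 came to 1.0 with library size alone, and *Smad9*, at 8 to 44 counts in naïve and primed libraries, passed at P5 without naïve P5 replicate 1 (−1.50, adjusted p = 0.00121) or with a crossed replicate block, and at P15 with the median feeder share taken off. The intracellular inhibitors, *Smad6* and *Smad7* included, held 0 higher and 1 lower of 8 at P5, *Smad7* itself, and 0 and 0 at P15 (medians −0.14 and −0.0082). At an unadjusted p under 0.05 by edgeR, 2 of them were higher and 3 lower at P15, and DESeq2's Wald test gave 0 and 0. Of all 15733 genes tested at P15, 10797 had such an unadjusted p, in either direction.

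Genes other than *Id* that respond to BMP in embryos or cell lines held 1 higher and 3 lower of 11 tested at P5 and 1 higher and 3 lower of 10 at P15 (medians −0.24 and −0.84). *Tfap2c*, a germ cell and trophoblast factor, fell at each passage, from 63.4 and 58.6 CPM to 20.4 and 20.1 CPM at P5 (log2 −1.56) and from 59.4 and 62.2 CPM to 15 and 13.6 CPM at P15 (log2 −2.10). *Hand1*, a basic helix-loop-helix factor of extraembryonic tissue and heart, fell at P15, from 42 and 39 counts to 3 and 4 counts (log2 −3.76, adjusted p = 4.18e-08), and had −0.24 at P5 (adjusted p = 0.563). *Gata3*, of trophoblast, rose at P5 (log2 2.34, adjusted p = 1.55e-10), from 1.29 and 1.53 CPM to 7.11 and 6.99 CPM, and had −0.43 at P15 (adjusted p = 0.228). The difference of the state effect between passages passed for *Hand1* (−3.51, adjusted p = 7.93e-05), *Gata3* (−2.75, adjusted p = 4.26e-07) and *Tfap2c* (−0.52, adjusted p = 0.000825).

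Of the E proteins that Id proteins bind, 0 of 3 passed both thresholds at either passage (medians 0.76 and 0.70). Alternatives that passed were up to 1.10 for *Tcf12* (2 of 13) and 1.20 for *Tcf4* (2 of 13) at P5 and 1.37 for *Tcf12* at P15 (5 of 13), each highest with the median feeder share taken off. *Tcf12* rose by 0.86 and 0.98 and *Tcf4* by 0.76 and 0.70 on the log2 scale at P5 and P15. *Tcf3* was at 198.9 CPM in naïve and 196.2 CPM in primed cells of P5 (log2 0.01, adjusted p = 0.811) and rose by 0.26 at P15. DESeq2's Wald test called 0 of 3 at either passage, and 2 were higher at an unadjusted p under 0.05 by edgeR at P5 and 3 at P15. Such a p was reached by 12030 of all 16482 genes tested at P5 and by 10797 of 15733 at P15, in either direction.

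Antisense transcripts overlap 3 of the 10 genes, and since strand handling in counting is not given in the sources used here, their reads and those of the partner cannot be told apart. Next to *Id4*, *A330033J07Rik* and *Gm49291* had 0 to 2 counts in each library. Next to *Bmp4*, *Gm15217* had 0 to 5 and *Gm15222* 0 to 8 counts in naïve and primed libraries, and 28 and 85 in MEFs. *Gm17110*, next to *Bmpr1a*, had 0 to 9.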

How the data were processed

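Raw counts per gene of 9 libraries were deposited. The authors made these counts from poly(A) RNA by trimming reads with Cutadapt, aligning them with HISAT2 to mm10 and counting them with featureCounts on Ensembl genes. The annotation release, strand setting and treatment of reads with several alignments are not given in the sources used here. Of 54232 gene IDs, 54079 had a name in GENCODE M21, used for names, coordinates and exon lengths. The other 153 were kept without one, and 92 spike-in rows with 0 counts were left out. Groups and replicates came from the sample titles.

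The versions were R 4.3.3, edgeR 4.0.16, DESeq2 1.42.0 and limma 3.58.1. Genes with at least 10 counts in at least 2 libraries of a fit were tested by edgeR's quasi-likelihood F-test with TMM scaling. Fits held the 4 libraries of a comparison, or all 8 for the difference between passages, without MEFs. A call needed a fold of at least 2 and an adjusted p under 0.01, and for the difference between passages the adjusted p alone. A count of 0 allows up to 3 counts, or 0.128 CPM in the MEF library and 0.148 to 0.221 CPM in the others, for counting error only. The code was tested on simulated data. Feeder RNA was estimated per library from the median, or the lowest, ratio of 14 fibroblast markers to the MEF library. The marker with the lowest ratio was taken in each library separately and differed between the groups.

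The 10 genes, the pathway lists, the markers and the tests were chosen with earlier results of these data known. Named besides the 10 are the 3 genes of each list with the largest change among those called at P5 or P15 at a mean of at least 1 CPM, all genes of a list whose members had no call, and the 3 genes most correlated with *Id1* and with *Bmp4*. Alternatives were library size alone, DESeq2 size factors, all genes with a count, DESeq2's Wald test, a replicate block, both feeder shares taken off, all 8 libraries in 1 fit and each library left out. A crossed replicate block was chosen after seeing the data. A summed list of 5 neuroectoderm markers was at 59.2 to 84.0 CPM in naïve and 23.5 to 27.7 CPM in primed libraries. *Tubb3* made up most of it in naïve cells (50.9 CPM at P5), while in primed cells at P5 it was at 10.0 CPM, below *Sox1*. *Sox1* rose at P5 (3.94 to 12.9 CPM, log2 1.75, adjusted p = 2.02e-11).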

Additional observations from a re-analysis of the deposited data

Results flagged for a closer look

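For 6 of the 10 genes the effect of the state differed between the passages by edgeR's interaction test, where 24.1% of the 16926 genes tested passed it. The log2 fold change of primed against naïve cells at P15 minus that at P5 was −1.94 for *Bmp4* and −1.58 for *Id1*, −1.0 for *Id4* and −0.55 for *Id3*, and it was 0.92 for *Smad7* and 0.75 for *Bmp7*. The call was lost in 6 of 15 alternatives for *Bmp7* and in 3 of 15 for *Id4*. For *Bmp4* both states took part, since it rose in naïve and fell in primed cells with passage. *Smad7* differed mainly through its rise in primed cells (1.08), *Id4* through its fall there (−1.0) and *Id3* through its rise in naïve cells (0.59).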

How the results depend on the processing

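Of 1406 alternative values for 152 results, 1257 were classed as the same, which for log2 values means that direction and call were kept. These include 61 CPM levels, and also counts of genes, where a small shift was classed as the same. Of the other values, 18 lost a call, 39 gained one and 31 changed sign, 0 of them past the thresholds before or after. A further 61 counts or levels moved, 39 of these being CPM levels under another scaling. Library size alone moved the median of all genes to 0.21 at P5, 0.10 at P15, −0.13 between passages in primed cells and −0.11 for the difference between passages, and the share of higher calls from 60.4% to 72.6% at P5 and from 55.0% to 35.2% for that difference. With it, 0 of the 10 genes were higher and 2 lower at P15 in primed cells, and 1 was higher for the difference between passages. Of all genes, 385 were higher and 1607 lower of 15957 tested in primed cells, and 1402 of 16926 were higher for that difference. In primed cells 2 of the 10 were lower at P15 with DESeq2 size factors, DESeq2's Wald test or all 8 libraries in 1 fit, and 3 with either feeder share taken off. Of all genes tested, 1359 of 15957, 972 of 15957 and 1335 of 16926 were lower with the first 3 settings. With the median and the lowest feeder share off, 1744 of 15228 and 1304 of 15793 were lower, against 1345 of 15957 in the main fit. With the median feeder share off, 0 of the 10 were higher at P15 in naïve cells, where 53 of all 15007 genes tested were. With it, 10 other pathway genes were lower in primed than in naïve cells at P15, where 1988 of all 14856 genes tested were. DESeq2's Wald test left 2 other pathway genes lower at P5, where 1206 of all 16482 genes tested were.

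With each library left out in turn, the lone library of its group being assumed to vary like the others, other pathway genes higher were 6 to 11 at P5 (6 without primed P5 replicate 1) and 6 to 11 at P15 (6 without primed P15 replicate 2), and those lower at P5 were 2 to 6 (2 without either primed P5 library). The 10 genes lower at P15 in primed cells were 1 to 3 (3 without primed P15 replicate 1), and those higher for the difference between passages 1 to 2 (1 without any of 5 libraries). Same-numbered replicates of the 2 states deviated in opposite directions (r = −0.13 at P5 and −0.19 at P15), and those of the 2 passages of a state deviated together (r = 0.16 in naïve and in primed cells). The labels tie them by number alone, so they were not treated as pairs. The replicate block left 3663 genes called at P5 and 3369 at P15, against 3680 and 3646, and 229 between passages in naïve and 1923 in primed cells, against 178 and 1853. The counts of the 10 genes were the same, and crossed pairs gave 3691 and 3647 genes. *Bmp4* could not be fitted with the median feeder share taken off.

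The changes of sign were in log2 values under a fold of 2, of which *Id3* in primed cells with the median feeder share off alone had an adjusted p under 0.01 (0.00823). With library size alone, primed against naïve was 0.10 for *Id1* and 0.086 for *Smad6* at P5 and 0.046 for *Smad6* at P15, P15 against P5 was −0.020 for *Id4* in naïve cells and −0.10 for *Id3*, −0.12 for *Bmp7* and −0.083 for *Bmpr1a* in primed cells, and the difference between passages was −0.039 for *Smad6*. *Id4* between passages in naïve cells was −0.0052 with no low-count filter, −0.0027 with all 8 libraries in 1 fit, and −0.38 and −0.024 with the median and lowest feeder share taken off. With the median share off, *Id3* and *Bmpr1a* between passages in primed cells were −0.28 and −0.044 and the difference for *Smad6* −0.14, and *Tcf3* at P5 was −0.0032 with all 8 libraries in 1 fit. With each library left out in turn, the state effect at P5 ranged from −0.0088 to 0.45 for *Bmp8a*, from −0.62 to 0.21 for *Hand1* and from −0.075 to 0.050 for *Tcf3*, and at P15 from −0.33 to 0.22 for *Smad6*. The change with passage ranged from −0.25 to 0.24 for *Id4* in naïve cells, and from −0.0057 to 0.053 for *Id3* and −0.093 to 0.12 for *Bmp7* in primed cells. The difference between passages ranged from −0.013 to 0.50 for *Bmp2* and from −0.22 to 0.33 for *Smad6*. The cause was not tested.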
